A study of Mus musculus with 19 samples.

Results

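The genes that present peptides to T lymphocytes, the class I and class II genes of the major histocompatibility complex (MHC, called H2 in the mouse), were examined in the lungs of mice given a mixture of polycyclic aromatic hydrocarbons. Members were every array probe whose RefSeq accession belonged to a gene with a symbol beginning in H2-, or to Cd74, Ciita, B2m, Tap1, Tap2, Tapbp, Psmb8, Psmb9 or Nlrc5. This gave 53 of 55681 probes, for 43 genes. Adult male MutaMouse animals, a transgenic strain made for mutation assays and about 12 weeks old, were housed singly and received olive oil or a mixture of 8 hydrocarbons by gavage on 28 days in a row, and lung RNA was taken 72 h after the last dose. The vehicle treated controls (D0, 0 mg) were mice 1, 2, 3, 4 and 5. The low dose group (D1, 15 mg per kg body weight each day, counted as benzo[a]pyrene equivalents) held mice 21, 22, 24 and 25. The middle dose group (D2, 30 mg) held mice 26, 28, 29, 30 and 23, and the high dose group (D3, 60 mg) held mice 31, 32, 34 and 35. All 18 mice carried the same transgene and differed by label only in the dose. Mouse 23 was labelled D2 although its number falls among those of D1, and mouse 35 had 2 arrays, on slides 2 and 3, which were averaged. The numbers of mice per dose in the methods are met when that first mouse is counted in the low dose group, so the main results at the low dose are also given with it there.

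MHC class I molecules are built from a heavy chain (H2-K and H2-D, the class Ia chains, or one of the many class Ib chains of the Q, T and M regions) and the light chain B2m. They carry peptides that the proteasome cuts in the cytosol and that the Tap1 and Tap2 pump moves into the endoplasmic reticulum, and they are shown on nearly all nucleated cells to CD8 T cells and NK cells. Class II molecules are pairs of an alpha and a beta chain (H2-A and H2-E), are guided by the invariant chain Cd74, are loaded with the help of H2-DM, and are made mainly by B cells, dendritic cells and macrophages. In lung, alveolar type 2 cells are also known to carry class II. Nlrc5 and Ciita are the transactivators of the class I and the class II genes, and both act through short promoter elements called the X and Y boxes.

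Each value was a log2 ratio of lung RNA (Cy5, red) over a shared reference, the pooled RNA of 11 mouse cell lines (Cy3, green), on the same array, so a difference of 1 between groups is a doubling. A probe was called changed when its adjusted p in limma was at most 0.05 and its change at least 1.5-fold. Of the 53 member probes, 42 probes for 34 genes passed the filter on low lung signals and were tested, among 31004 probes in all. The tested genes were 22 of class I (2 class Ia heavy chains, 13 class Ib and other heavy chains and 7 for assembly and control), 11 of class II (4 chains and 7 for assembly and control) and H2-Ke6, a neighbour in the complex that encodes no MHC molecule and whose log2 fold changes were -0.04, -0.02 and 0.01 at the 3 doses. H2-K2 and H2-T10, counted with the heavy chains, are transcribed pseudogenes in RefSeq. The 11 probes that were not tested were those of H2-M1, H2-M10.1, H2-M10.2, H2-M10.3, H2-M10.4, H2-M10.6, H2-M5, H2-M9 and H2-T3. No probe matched H2-Ea. Where a gene had more than 1 probe, the brighter one stood for it. The heavy chain genes are near-identical copies of each other, so a probe for one may also bind transcripts of another, and their separate values are uncertain. MutaMouse descends from BALB/c and DBA/2 mice, which share the d haplotype of the complex, while the accessions and the promoter sequences are those of the reference strain, which carries the b haplotype. Array median red signals lay between 114 and 151.5, with 54.5% to 64.7% of spots well above background, and no spot was saturated. Every slide held all 4 groups, but in each of them the dose rose with the array column, so the effects of position and of dose cannot be told apart.

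Short motifs were searched in the promoters of both classes. In the 250 bases before the start, 33 of the 43 member genes had 36 RefSeq promoter entries (GRCm38.p6), and 3 short motifs were searched on both strands: AGCAAC, the core of the X box, TGACG, the core of the neighbouring X2 box, and GATTGG, a form of the inverted CCAAT that the factor NF-Y recognises in the Y box and in other promoters. The windows below, read 5′ to 3′ on the gene's own strand with each motif in capitals, are shown because they hold the motifs of the chains and loading factors whose values follow. A GATTGG on the opposite strand reads CCAATC. In H2-Aa the TGACG of either strand overlap as TGACGTCA.
B2m, chr2:122147601-122147646, plus strand: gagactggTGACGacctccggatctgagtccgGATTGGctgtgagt
H2-D1, chr17:35262985-35263054, plus strand: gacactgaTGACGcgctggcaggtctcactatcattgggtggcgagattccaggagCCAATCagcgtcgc
H2-K1, chr17:34000334-34000396, minus strand: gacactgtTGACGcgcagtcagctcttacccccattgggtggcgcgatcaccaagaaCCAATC
H2-Q4, chr17:35379536-35379575, plus strand: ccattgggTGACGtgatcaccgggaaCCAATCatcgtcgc
H2-T23, chr17:36032740-36032761, minus strand: tctaaaagCCAATCagcgacgc
Tap1, chr17:34187462-34187482, plus strand: gagacaggTGACGacagaggg
H2-Aa, chr17:34287859-34287905, minus strand: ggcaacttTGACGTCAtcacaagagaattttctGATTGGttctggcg
H2-Eb1, chr17:34305767-34305845, plus strand: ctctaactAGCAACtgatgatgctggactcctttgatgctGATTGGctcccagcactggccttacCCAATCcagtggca
H2-Oa, chr17:34092294-34092348, plus strand: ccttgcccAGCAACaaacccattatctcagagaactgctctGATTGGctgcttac
H2-Ob, chr17:34238809-34238860, plus strand: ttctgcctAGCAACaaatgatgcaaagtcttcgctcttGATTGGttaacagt
H2-DMb1, chr17:34153121-34153142, plus strand: cactcagtGATTGGtctgacct

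GATTGG was found in 75% of the member entries and in 14.6% of all 32851 promoter entries of the table. It lay on the gene's own strand in 8 of the 9 class II entries and in 0 of the 21 entries of class I heavy chains, of which 15 held it on the opposite strand. This contrast between the strands depends on the first letter. The shorter ATTGG, which every GATTGG holds, lay on the gene's own strand in 12 of the 21 entries of class I heavy chains and in the same 8 of 9 class II entries, and on either strand in 33.8% of all entries. H2-D1 and H2-K1, for example, hold ATTGGG on their own strand between the TGACG and the CCAATC of the windows above. AGCAAC was in 44.4% of the class II entries, in 0 of the 26 class I entries and in 12.2% of all entries. TGACG was in 46.2% of the class I entries, in 11.1% of the class II entries and in 17.8% of all entries. Cd74, Ciita, H2-Ab1, H2-K2, H2-Q1, H2-Q8, H2-T10, H2-T24, Nlrc5 and Tap2 had no entry. These are matches of letters and do not show where a factor binds.

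**Figure D1:**
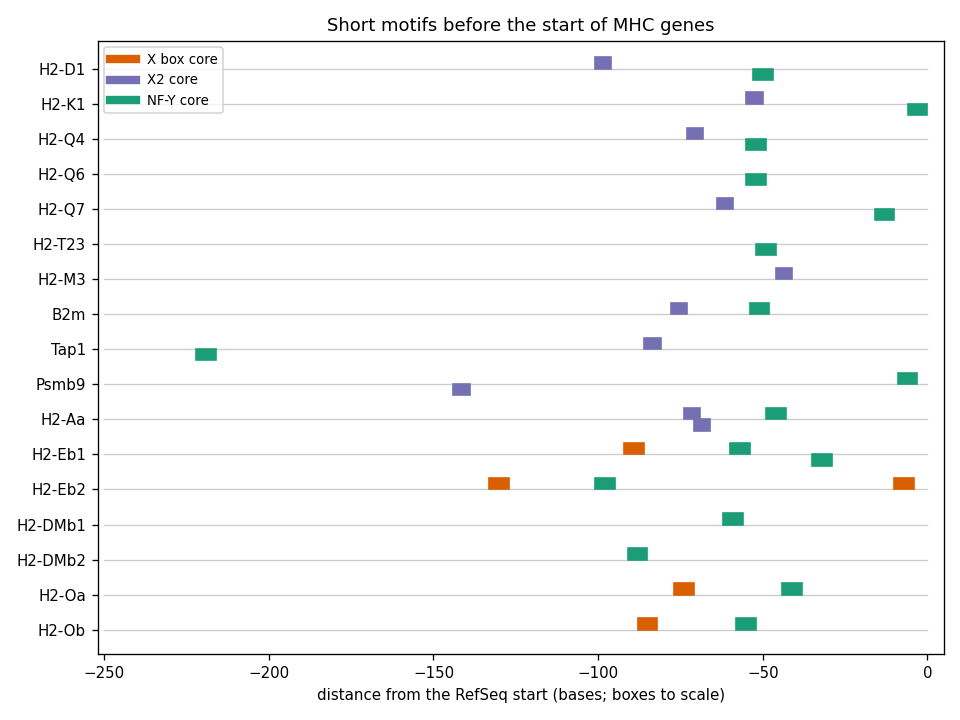
Position of the 3 motifs (distance from the RefSeq start in bases, x axis) in 1 promoter entry of each gene shown (y axis), with a colour for each motif and with boxes above a line on the gene's strand and boxes below it on the opposite strand. The NF-Y cores drawn are GATTGG alone, so shorter matches such as ATTGGG are not shown, and those of the class I heavy chains lie below their lines while each class II gene shown has one above its line.

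Only 1 of the 42 tested member probes was called changed against the controls, the dimmer of 2 probes for H2-Q10, a secreted class Ib heavy chain known mainly from liver, which was higher in D3. At D1 the count was 0 of 42, against 1.06% of all probes tested, and at D2 it was 0 of 42, against 0.626%. At D3 it was 1 of 42, where 2.43% of all probes were called and 1.21% called higher, so the members' share was near that of the whole array. By the adjusted p alone (limma, Benjamini-Hochberg), 3 member probes were higher at D1 (4.73% of all probes passed, 2.42% higher), 0 passed at D2 (2.09%), and 1 was higher and 1 lower at D3 (12.4%, with 6.03% higher and 6.37% lower). At an unadjusted p of at most 0.05 the counts were 15 at D1, 8 at D2 and 4 at D3, where 19.8%, 14.7% and 26.2% of all probes passed. All 15 at D1 and all 8 at D2 were higher than in the controls, while over the whole array 9.41% and 6.87% of the probes passed and were lower. With mouse 23 counted in D1, 0 members passed the adjusted p at D1.

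The class I genes lay mostly above the controls at the low dose and near them at the high dose. The median log2 fold change over the 22 class I genes was 0.25 at D1, with 17 genes above 0, then 0.09 at D2, with 16 above 0, and -0.07 at D3, with 9 above 0. Over the 11 class II genes it was 0.25, 0.18 and 0.01, with 7, 7 and 6 genes above 0. Over all probes tested the median was 0.01 at D1 and -0.00 at D2 and D3, and 48.3%, 51.1% and 50.5% of them were below 0. With mouse 23 counted in D1, the D1 medians were 0.22 for class I and 0.16 for class II. Without the filter on low signals the class I median at D1 was 0.12. The class II median at D1 was 0.14 from the lung channel alone and 0.11 from the processed signals. Without control mouse 5 it was 0.055, without control mouse 2 it was 0.11 and without D1 mouse 21 it was 0.14, and within slides 1, 2 and 3 it was 0.05, 0.04 and 0.09. The class I median at D3 was above 0 with median centring in place of loess (0.15) and without a filter on low signals (0.0007). The class II median at D3 was below 0 from the scanner's processed signals (-0.20), from the lung channel alone (-0.04), with slide as a block (-0.08, and -0.09 in that fit with array 35.1 alone for mouse 35), when only array 35.2 stood for mouse 35 (-0.03) and from the authors' deposited ratios (-0.02). Its sign turned in 7 of 14 alternative settings and in 5 of 18 fits without 1 mouse.

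**Figure D2:**
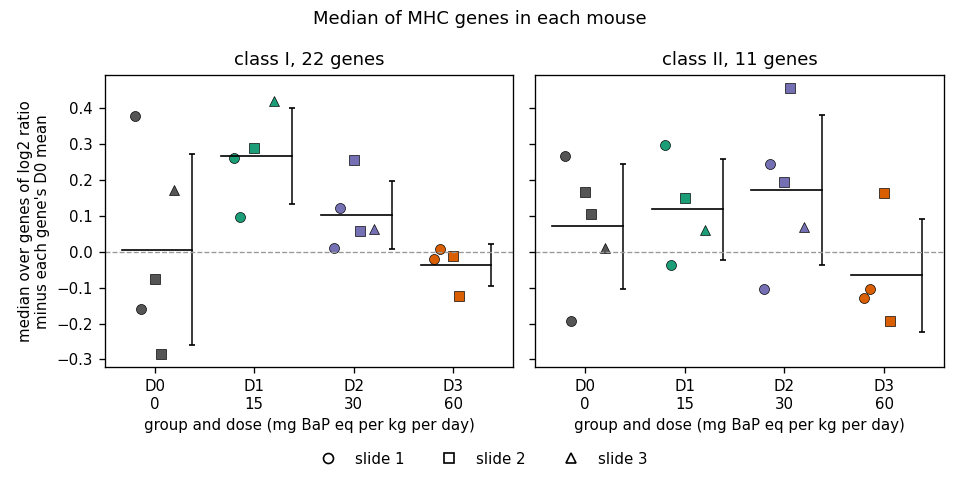
Median over the class I genes and over the class II genes of each mouse's log2 ratio minus the gene's D0 mean (y axis), by dose group (x axis), with 1 point for each mouse, its shape giving the slide, and the group mean and SD as a line and bar. The D1 mice lie above 0 for class I, and the groups overlap with the controls in both classes.

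Mouse by mouse, the median of the class I genes, each taken as the log2 ratio minus the gene's D0 mean, was 0.38, -0.16, -0.08, -0.29 and 0.17 in D0 mice 1 to 5. It was 0.26, 0.10, 0.29 and 0.42 in D1 mice 21, 22, 24 and 25, and 0.01, 0.12, 0.26, 0.06 and 0.06 in D2 mice 26, 28, 29, 30 and 23. In D3 mice 31, 32, 34 and 35 it was -0.02, 0.01, -0.01 and -0.12. The controls thus spread more widely than any dose group, and every dose group lay inside their range except D1 mouse 25. Control mouse 1 was the highest of its group in 19 of the 22 class I genes and mouse 4 the lowest in 15, while in D2 mouse 29 was the highest in 17. The median SD of the class I genes was 0.29 in D0, 0.21 in D1, 0.20 in D2 and 0.13 in D3, and over all probes tested it was 0.14, 0.15, 0.15 and 0.13.

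For class II the same median per mouse was 0.27, -0.19, 0.17, 0.10 and 0.01 in D0. It was 0.30, -0.04, 0.15 and 0.06 in D1, -0.10, 0.24, 0.19, 0.46 and 0.07 in D2, and -0.13, -0.10, 0.16 and -0.19 in D3. No group was apart from the controls. The median SD of the class II genes was 0.29, 0.28, 0.26 and 0.27 in D0, D1, D2 and D3. In bulk lung RNA, fewer cells of a type and less RNA per cell cannot be told apart.

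Among the class Ia chains, H2-K1 and H2-D1, the classical molecules shown to CD8 T cells, no probe passed the adjusted p at any dose. H2-K1 had log2 ratios of 2.86, 2.27, 2.43, 2.32 and 2.88 in D0, 2.64, 2.51, 2.86 and 2.98 in D1, 2.78, 2.67, 3.21, 2.78 and 2.77 in D2, and 2.46, 2.47, 2.50 and 2.50 in D3. On this brighter probe the D3 mice lay within 0.04 of each other and inside the control range. The log2 fold changes were 0.19 (95% interval -0.09 to 0.48, adjusted p = 0.461 by limma) at D1, 0.29 (0.02 to 0.55, adjusted p = 0.291) at D2 and -0.07 (-0.35 to 0.21, adjusted p = 0.793) at D3. On the dimmer H2-K1 probe the D3 mice lay between 2.51 and 2.71. Its changes were 0.36 (0.07 to 0.65, adjusted p = 0.144 by limma), 0.15 and -0.09 at D1, D2 and D3, so its highest value was at D1.

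H2-D1 gave 3.05, 2.71, 2.94, 2.72 and 2.98 in D0, 3.14, 2.98, 3.37 and 3.31 in D1, 2.67, 3.01, 3.12, 2.83 and 2.93 in D2, and 2.79, 2.90, 2.92 and 2.93 in D3. In D1, 3 of the 4 mice were above all controls. Its log2 fold change at D1 was 0.32 (0.11 to 0.53) with a limma adjusted p of 0.0762, and with slide as a block 0.33 with an adjusted p of 0.0442 (with the array row as a block 0.34, adjusted p = 0.0561), while at D2 and D3 it was 0.03 and 0.01. The D1 change was 0.52 (adjusted p = 0.0101) from the lung channel alone, 0.41 (adjusted p = 0.0331) in the deposited ratios, 0.39 (adjusted p = 0.0482) without D1 mouse 22, and 0.27 (adjusted p = 0.136) with mouse 23 in D1. B2m, the light chain shared by all class I molecules, changed by 0.18 (-0.17 to 0.53), -0.02 (-0.35 to 0.31) and -0.18 (-0.53 to 0.17), with limma adjusted p-values of 0.613, 0.976 and 0.551.

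The 13 class Ib and other heavy chain genes had 17 tested probes, where class Ia had 3. In the main fit all heavy chain probes past the adjusted p were among those 17. Over these 13 genes the median was 0.29 in D1, 0.03 in D2 and -0.10 in D3 on the log2 fold change scale, with 9, 8 and 3 genes above 0. The dimmer H2-Q10 probe gave 0.67, 0.45, 0.69, 0.86 and 0.26 in D0, 1.63, 1.41, 1.07 and 0.78 in D1, 1.18, 1.07, 1.20, 0.93 and 0.43 in D2, and 1.38, 1.46, 2.26 and 1.01 in D3. All 4 mice of D3 lay above all controls. At D3 it rose 1.92-fold, a log2 fold change of 0.94 (0.49 to 1.4, adjusted p = 0.0077 by limma). The low and middle doses gave 0.64 (0.18 to 1.09, adjusted p = 0.0979) and 0.37 (-0.05 to 0.80, adjusted p = 0.422). The D1 value was called with slide as a block (0.67, adjusted p = 0.0332), with the array row of a slide as a block (0.74, adjusted p = 0.0143) and without D3 mouse 34 (0.64, adjusted p = 0.0493), and with mouse 23 in D1 it was 0.48 (adjusted p = 0.206). It was also the only member called in the linear trend over dose (1.45% of all probes were called), a call that was lost without D3 mouse 32 or mouse 34. Without mouse 34, the highest of D3, the change at D3 was 0.70 with an adjusted p of 0.0279, and with median centring in place of loess it was 0.92 with an adjusted p of 0.107. From the scanner's processed signals, which are background subtracted, the changes were larger, 1.73 (adjusted p = 0.0525) at D1, 0.93 (adjusted p = 0.386) at D2 and 2.30 (adjusted p = 0.00537) at D3. The lung signal of this probe was weak, 110 to 146 in the controls and up to 502 in mouse 34, and its reference signal did not rise well above background in any of the 18 mice.

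The brighter H2-Q10 probe had another pattern. It gave 1.26, 1.00, 0.97, 0.60 and 1.09 in D0, 1.5, 1.39, 1.44 and 1.51 in D1, 1.15, 1.20, 1.26, 1.00 and 1.01 in D2, and 1.08, 1.26, 1.00 and 0.89 in D3. All 4 mice of D1 lay above all controls. At D1 it rose 1.39-fold, a log2 fold change of 0.48 (0.25 to 0.70, adjusted p = 0.0149 by limma), under the 1.5-fold threshold. With mouse 23 in D1 that change was 0.39 with an adjusted p of 0.0605, and the adjusted p was also above 0.05 with the processed signals (0.0736) and with median centring. The D2 and D3 changes were 0.14 (adjusted p = 0.571) and 0.08 (-0.15 to 0.30, adjusted p = 0.71). The 2 probes of H2-Q10 therefore disagree on D3, and which of them follows H2-Q10 RNA was not tested.

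H2-Q2 and H2-Q4 were named after their values were seen. The dimmer H2-Q2 probe gave 1.85, 1.55, 1.69, 1.26 and 1.74 in D0, 2.01, 1.93, 2.02 and 2.23 in D1, 1.51, 1.83, 1.81, 1.51 and 1.59 in D2, and 1.62, 1.67, 1.54 and 1.45 in D3. The D1 mice were again above all controls, with a log2 fold change of 0.43 (0.20 to 0.65, adjusted p = 0.03 by limma), and the changes at D2 and D3 were 0.03 and -0.05. The adjusted p at D1 was above 0.05 without control mouse 2, 3 or 4, without D1 mouse 21, 24 or 25, with mouse 23 in D1, with median centring and with the processed signals. The brighter H2-Q2 probe changed by 0.29 at D1 with an adjusted p of 0.181. These 2 probes, of H2-Q2 and H2-Q10, were the only ones of the 42 with D1 clear of the controls on the high side (4.73% of all probes were), and the dimmer H2-Q10 probe was the only one with D3 clear of them (7.47%).

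H2-Q4 was the one member probe lower than in the controls by the adjusted p. It gave 2.82, 2.36, 2.16, 2.02 and 2.10 in D0, 2.12, 1.64, 1.79 and 2.20 in D1, 2.27, 1.89, 1.74, 2.34 and 1.81 in D2, and 1.87, 2.06, 1.66 and 1.26 in D3. D3 mouse 32 was above the lowest control, so the groups overlapped. The log2 fold changes were -0.35 (adjusted p = 0.291 by limma), -0.28 (adjusted p = 0.485) and -0.58 (-0.96 to -0.20, adjusted p = 0.0431), and the last, 1.49-fold lower, was just under the 1.5-fold threshold. It passed the threshold with slide as a block (-0.59, adjusted p = 0.026), with array 35.1 alone for mouse 35, and without D3 mouse 32 (-0.69, adjusted p = 0.0291), control mouse 4 (-0.65, adjusted p = 0.0377) or control mouse 5 (-0.63, adjusted p = 0.0459). The adjusted p was above 0.05 without control mouse 1, 2 or 3, without D3 mouse 31, 34 or 35, with median centring, with the processed signals, from the lung channel alone, without the filter on low signals and in the deposited ratios.

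Qa-1, the product of H2-T23 that is shown to NK cell receptors, and H2-M3, which presents formylated bacterial peptides, did not pass the adjusted p. H2-T23 ranged from 1.35 to 2.30 in D0, 2.00 to 2.23 in D1, 1.62 to 2.00 in D2 and 1.45 to 1.88 in D3, with log2 fold changes of 0.38 (0.07 to 0.69, adjusted p = 0.149 by limma), 0.09 and -0.10. Its D1 change was 0.31 (adjusted p = 0.236) with mouse 23 in D1 and 0.51 (adjusted p = 0.0334) without control mouse 1. H2-M3 changed by 0.13 (-0.14 to 0.39), 0.03 (-0.22 to 0.27) and -0.20 (-0.46 to 0.06). The remaining class Ib genes had log2 fold changes between -0.41 (H2-M11 at D2) and 0.39 (H2-T10 at D1).

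**Figure D3:**
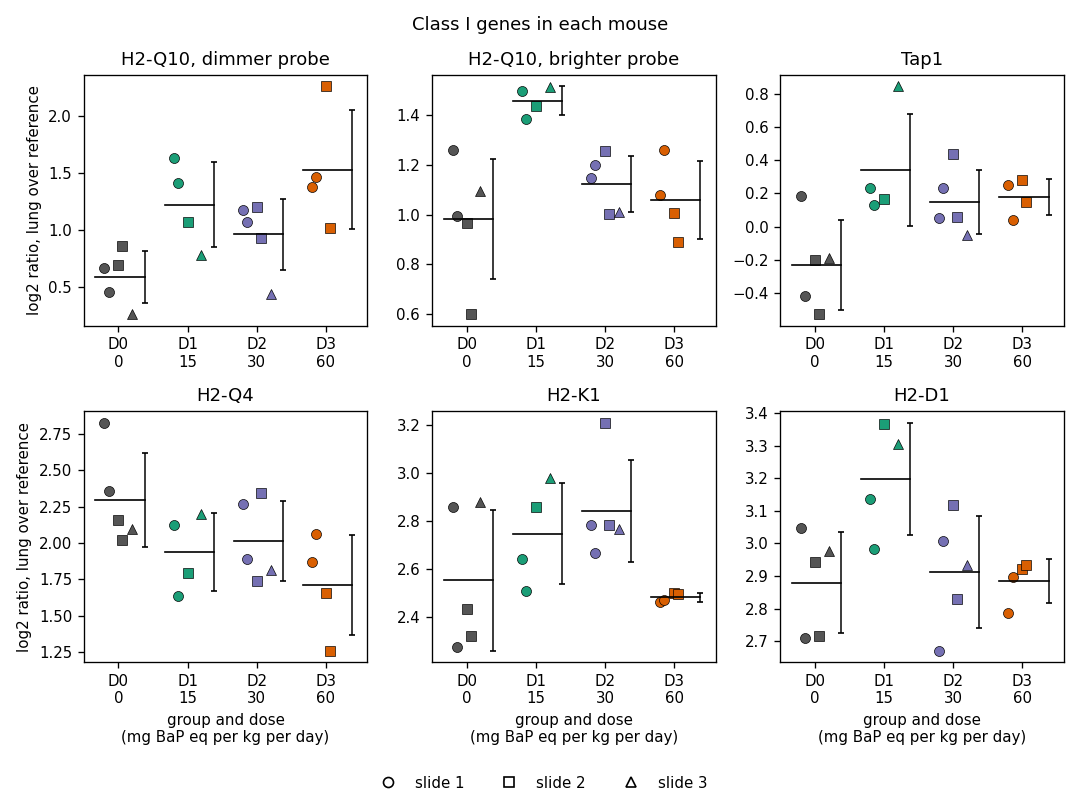
Log2 ratio of lung over reference (y axis) of class I genes in each mouse (points, with the shape giving the slide) of D0, D1, D2 and D3 (x axis), with the group mean and SD as a line and bar. For the brighter H2-Q10 probe the 4 D1 mice lie above all controls, and for the dimmer probe the 4 D3 mice do.

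The 7 class I assembly and control genes had median log2 fold changes of 0.21, 0.16 and 0.06 in D1, D2 and D3, with 6, 6 and 5 genes above 0. Tap1, one subunit of the peptide pump, gave 0.18, -0.42, -0.20, -0.53 and -0.19 in D0, 0.23, 0.13, 0.17 and 0.84 in D1, 0.05, 0.23, 0.44, 0.05 and -0.05 in D2, and 0.25, 0.04, 0.28 and 0.15 in D3. Apart from control mouse 1, all controls were below every treated mouse. Tap1 rose at D1 by the adjusted p alone, with a log2 fold change of 0.57 (0.26 to 0.88, adjusted p = 0.0329 by limma), which is 1.49-fold. The D2 and D3 values were 0.37 (0.08 to 0.67, adjusted p = 0.191) and 0.41 (0.10 to 0.72, adjusted p = 0.0812). The D3 value passed the adjusted p without control mouse 1 (0.51, adjusted p = 0.0282), without D1 mouse 25 (0.41, adjusted p = 0.0353) and with array 35.1 alone for mouse 35 when slide was the block (0.46, adjusted p = 0.0471) or the array row was (0.46, adjusted p = 0.0404). The change at D1 was 0.41 with an adjusted p of 0.108 without D1 mouse 25, and with mouse 23 in D1 it was 0.49 with an adjusted p of 0.0582. The adjusted p at D1 was also above 0.05 without control mouse 2 (0.0621), 3 (0.0628) or 4 (0.0837), without D1 mouse 21 (0.0563), with median centring (0.526), with the processed signals (0.099) and from the lung channel alone (0.067). Tap1 passed 1.5-fold at D1, and so was called there, with the array row as a block (0.60, adjusted p = 0.0222), without control mouse 1 (0.68, adjusted p = 0.0146), without D1 mouse 22 (0.64, adjusted p = 0.0364) and without D1 mouse 24 (0.63, adjusted p = 0.0377). In no setting was it called at D3.

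Tap2, the partner of Tap1 in the pump, changed by 0.12 (-0.14 to 0.38), 0.04 (-0.20 to 0.28) and 0.04 (-0.21 to 0.30). Tapbp (tapasin), which holds empty class I molecules at the pump, changed by -0.03, 0.09 and 0.12, each with a 95% interval that held 0. The immunoproteasome subunits Psmb8 and Psmb9, which replace subunits of the standard proteasome and change the peptides it cuts, had higher values at D1 without passing the adjusted p. Psmb8 ranged from 0.45 to 1.06 in D0 and from 0.97 to 1.29 in D1, a log2 fold change of 0.38 (0.14 to 0.62, adjusted p = 0.0628 by limma), and with slide as a block 0.36 with an adjusted p of 0.0469, or 0.0505 in that fit with array 35.1 alone for mouse 35. With the array row as a block it was 0.39 with an adjusted p of 0.0334. With mouse 23 in D1 the changes were 0.36 for Psmb8 (adjusted p = 0.0613) and 0.34 for Psmb9 (adjusted p = 0.111). Psmb8 passed the adjusted p in the deposited ratios (0.39, adjusted p = 0.0474), and both passed it without control mouse 1 (0.46, adjusted p = 0.0306, and 0.47, adjusted p = 0.0476). Psmb9 also passed it without D1 mouse 22 (0.51, adjusted p = 0.0328). With all mice Psmb9 changed by 0.38 (0.11 to 0.65, adjusted p = 0.0985) at D1 and 0.39 (0.13 to 0.64, adjusted p = 0.116) at D2. At D3 both were near the controls, with changes of 0.09 and 0.06. Nlrc5, the class I transactivator, changed by 0.21 (-0.29 to 0.72), 0.16 (-0.32 to 0.64) and -0.15 (-0.65 to 0.36), with control mice from -0.28 to 1.16.

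No class II chain passed the adjusted p at any dose. H2-Ab1, the beta chain of H2-A, gave 4.40, 4.08, 4.85, 5.06 and 4.58 in D0, 4.02, 3.98, 4.75 and 4.37 in D1, 4.32, 4.20, 4.73, 5.06 and 4.39 in D2, and 3.85, 4.11, 4.53 and 4.22 in D3. H2-Eb1, the beta chain of H2-E, gave 3.76, 3.38, 4.05, 4.12 and 3.84 in D0, 3.45, 3.32, 3.97 and 3.66 in D1, 3.54, 3.39, 3.89, 4.20 and 3.64 in D2, and 3.26, 3.29, 3.84 and 3.41 in D3. In both genes the treated groups overlapped with the controls at every dose.

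H2-Ab1 changed by -0.32 (-0.75 to 0.12, adjusted p = 0.425 by limma) at D1, -0.05 (adjusted p = 0.94) at D2 and -0.42 (-0.85 to 0.01, adjusted p = 0.207) at D3. H2-Eb1 changed by -0.23, -0.10 and -0.38 (-0.75 to -0.01, adjusted p = 0.175 at D3). With slide as a block, the D3 change of H2-Ab1 was -0.43 with an adjusted p of 0.00894 and that of H2-Eb1 -0.39 with an adjusted p of 0.0132, both lower than the controls but under 1.5-fold. In that fit the linear trends of H2-Ab1 (-0.37, adjusted p = 0.0259 by limma) and H2-Eb1 (-0.35, adjusted p = 0.0264) also passed the adjusted p. That fit placed mouse 35, the mean of arrays on slides 2 and 3, on slide 2. With array 35.1 alone the changes were -0.36 (adjusted p = 0.0112) and -0.33 (adjusted p = 0.013), and with the array row as the block -0.36 (adjusted p = 0.011) and -0.33 (adjusted p = 0.0114). Against controls on the same slide, with mouse 35 entered by its own array on each, the D3 change of H2-Ab1 was -0.26, -0.44 and -0.66 on slides 1, 2 and 3, and that of H2-Eb1 was -0.30, -0.35 and -0.66. From the lung channel alone it was -0.16 for H2-Ab1 (adjusted p = 0.343) and -0.32 for H2-Eb1 (adjusted p = 0.12).

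H2-Aa, the alpha chain of H2-A, gave 6.37, 5.64, 6.53, 6.30 and 3.89 in D0, 6.04, 5.86, 6.41 and 6.05 in D1, 5.70, 6.0, 5.94, 6.20 and 5.81 in D2, and 5.61, 5.82, 5.91 and 5.70 in D3. Control mouse 5 stood far below every other mouse and brought the SD of D0 to 1.09. Its lung signal, 8798, was not low, but its reference signal was 410, where all other mice had 55 to 124. With all mice the changes were 0.34 (-0.39 to 1.08), 0.18 (-0.51 to 0.88) and 0.01 (-0.72 to 0.75), with limma adjusted p-values of 0.644, 0.871 and 0.987. Without mouse 5 they were -0.12, -0.28 and -0.45, the last with an adjusted p of 0.0819. From the lung channel alone, which does not use the reference, they were 0.09, -0.24 and -0.49, and the D3 value had an adjusted p of 0.0105. The linear trend of H2-Aa was -0.56 there, with an adjusted p of 0.00481 by limma. H2-Eb2, a second beta chain gene, changed by 0.27, 0.43 (0.12 to 0.74, adjusted p = 0.153 by limma) and 0.23, on a probe with a reference signal that never rose well above background, and its D2 change had an adjusted p of 0.0494 with the array row as a block.

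**Figure D4:**
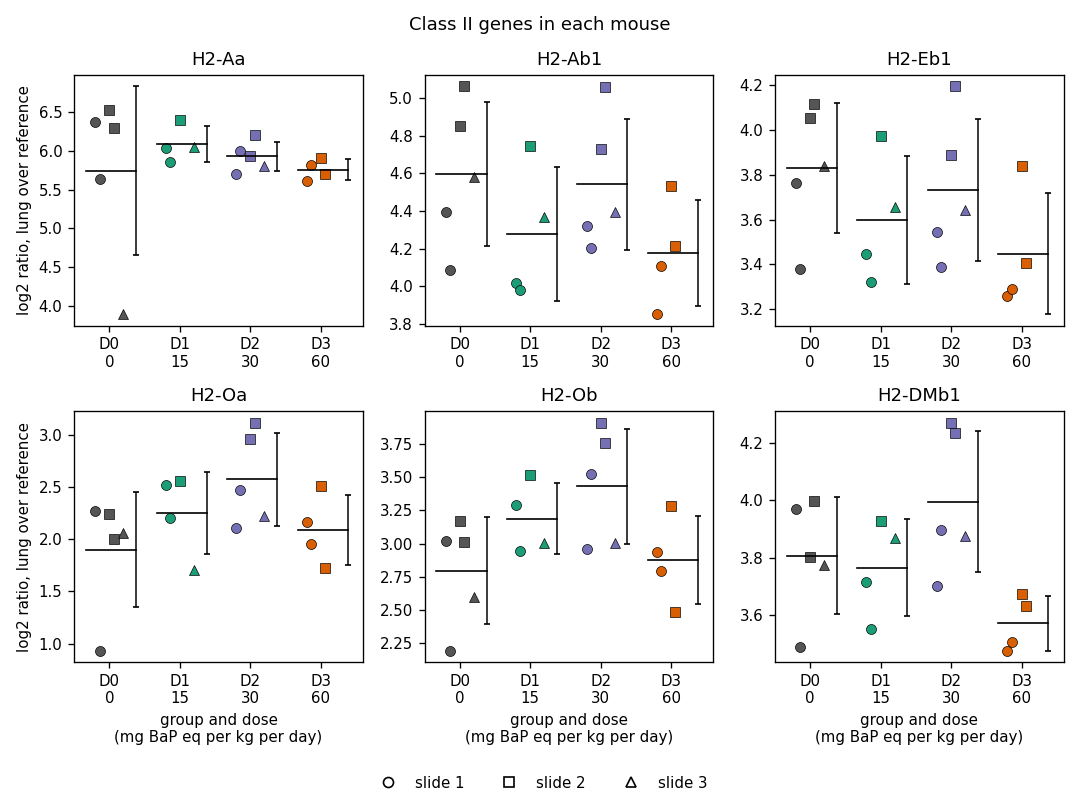
Log2 ratio of lung over reference (y axis) of class II genes in each mouse (points, with the shape giving the slide) of D0, D1, D2 and D3 (x axis), with the group mean and SD as a line and bar. Control mouse 5 is the single low point of H2-Aa, at 3.89, and the treated groups of every gene overlap with the controls.

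None of the 7 class II assembly and control genes passed the adjusted p at any dose. Cd74, the invariant chain, changed by 0.01 (-0.28 to 0.30), 0.09 (-0.18 to 0.37) and -0.15 (-0.44 to 0.14), with limma adjusted p-values of 0.978, 0.817 and 0.538. Its D3 mice lay between 3.29 and 3.43, inside the control range of 3.28 to 3.86. Ciita, the class II transactivator, changed by -0.07 (-0.32 to 0.18), -0.01 (-0.25 to 0.22) and 0.19 (-0.06 to 0.44), and its linear trend passed the adjusted p with the array row as a block (0.28, adjusted p = 0.0451). The lung signal of Ciita was weak, 99.5 to 167 in the controls and up to 181 in D2 mouse 23. H2-DMa and H2-DMb1, the chains of the peptide loader, changed by 0.25 and -0.04 at D1, -0.03 and 0.19 at D2, and -0.16 and -0.23 at D3, with adjusted p-values of 0.552 and 0.236 at D3 (limma). From the lung channel alone H2-DMb1 was lower, by -0.32 at D3 (adjusted p = 0.0267) and by -0.49 from D2 to D3 (adjusted p = 0.0251). H2-DMb2 changed by 0.32, 0.32 and 0.03.

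H2-Oa and H2-Ob, the chains of H2-O, an inhibitor of H2-DM known from B cells, had the largest D2 values among the members. H2-Oa gave 2.26, 0.93, 2.24, 2.00 and 2.06 in D0, 2.52, 2.20, 2.55 and 1.71 in D1, 2.11, 2.47, 2.96, 3.11 and 2.22 in D2, and 2.16, 1.95, 2.51 and 1.72 in D3. The brighter H2-Ob probe gave 3.02, 2.19, 3.17, 3.01 and 2.59 in D0, 3.29, 2.94, 3.52 and 3.00 in D1, 2.96, 3.52, 3.91, 3.76 and 3.01 in D2, and 2.94, 2.79, 3.29 and 2.48 in D3. Mice 29 and 30 of D2 were the highest in both genes, control mouse 2 the lowest, and the groups overlapped.

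At D2, H2-Oa changed by 0.67 (0.16 to 1.19, adjusted p = 0.182 by limma) and H2-Ob by 0.63 (0.20 to 1.07, adjusted p = 0.13). Without control mouse 2 the changes were 0.43 (adjusted p = 0.356) and 0.48 (adjusted p = 0.263). With slide as a block the H2-Ob change, 0.63, had an adjusted p of 0.0445, with the array row as a block 0.0293, and within slides 1, 2 and 3 it was 0.63, 0.75 and 0.41. These are values of the brighter H2-Ob probe, and the dimmer one did not pass the adjusted p in either block fit. Of 10 B cell markers tested 9 were above 0 at D2, with a median log2 fold change of 0.53, and 0 were called or past the adjusted p. At D1 and D3 the medians of these markers were 0.22 and -0.03, with 8 and 4 above 0. Their median per mouse ranged from -0.81 in mouse 2 to 0.41 in D0 and from -0.17 to 1.03 in D2, where mice 29 and 30 had 1.03 and 0.98. Their summed red signal, not normalized between arrays, was 3240 to 8140 in D0 and 5010 to 18000 in D2. Such sums also rise with the brightness of an array. That of endothelial cell markers was 91700 to 134000 in D0 and 92100 to 198000 in D2. The part of the B cell markers in the H2-O values was not tested.

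**Figure D5:**
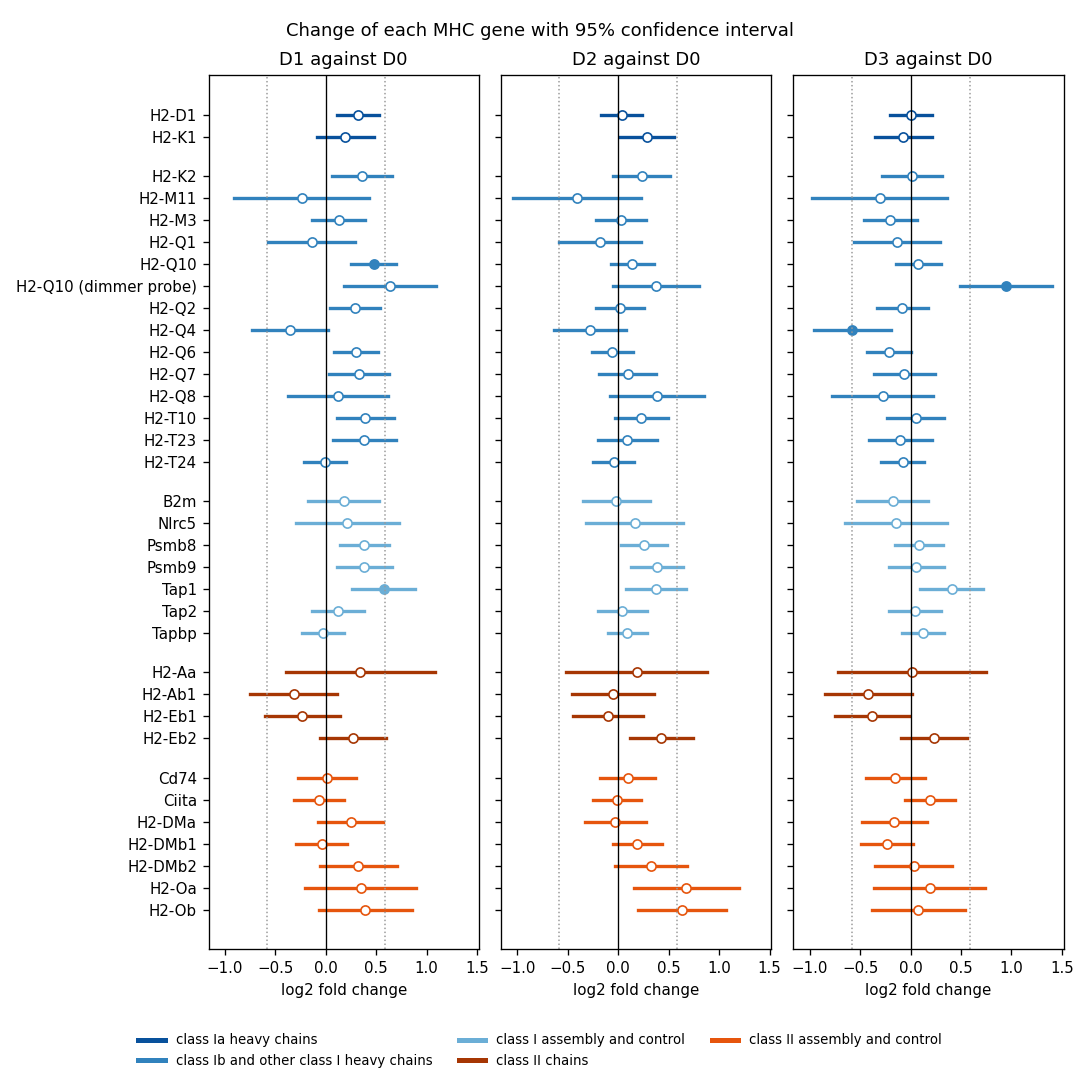
Log2 fold change against the controls (x axis) of the tested member genes (y axis) at D1, D2 and D3, grouped by role, with 95% intervals as bars, dotted lines at 1.5-fold and filled points where the adjusted p was at most 0.05. Most class I genes have their highest value at D1, with Tap1 at 0.57, and most D3 intervals hold 0.

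The dose groups were also set against each other. From D1 to D3, 20 of the 22 class I genes had a value below 0, with a median change of -0.33, and so did 10 of the 11 class II genes, with a median of -0.16, where 53.4% of all probes were below 0 and the median over them was -0.01. None of the 42 probes was called between D3 and D1 (0.145% of all probes were), but 15 had an unadjusted p of at most 0.05 (7.68% of all probes), and all 15 were lower in D3 (3.88% of all probes passed and were lower). The smallest adjusted p was that of H2-Q6, a class Ib heavy chain named after its values were seen, which gave 2.97, 2.96, 2.98 and 3.08 in D1 and 2.48, 2.60, 2.42 and 2.43 in D3. These groups did not overlap, and the change was -0.51 (-0.74 to -0.28, adjusted p = 0.0671 by limma). Its adjusted p was 0.0277 without control mouse 1 and 0.0443 without D2 mouse 30, and with mouse 23 in D1 the change was -0.44 (adjusted p = 0.125). With mouse 23 in D1 the medians from D1 to D3 were -0.29 for class I, with 18 of 22 genes below 0, and -0.21 for class II, with 10 of 11.

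Other members among the 15 were H2-T23 (-0.48), H2-DMa (-0.41), H2-M3 (-0.33), H2-D1 (-0.31), Psmb9 (-0.32) and Psmb8 (-0.30). Between D2 and D1 and between D3 and D2 no member was called, where 0% and 0.106% of all probes were. The 2 classes differed in direction at the first of these steps, a difference that was not tested. From D1 to D2, 17 of 22 class I genes were below 0 (median -0.13) and 9 of 11 class II genes above 0 (median 0.13), where 50.1% of all probes were below 0. With mouse 23 in D1 the same step had 13 of 22 class I genes below 0 (median -0.06) and 3 of 11 class II genes below 0 (median 0.15). From D2 to D3 values of both classes were mostly below 0, in 17 of 22 and 10 of 11 genes (medians -0.16 and -0.28), where 51.4% of all probes were. These comparisons share the D1, D2 or D3 mice with each other. A test for any difference over the 3 doses (limma F test, adjusted p at most 0.05) picked 4 of the 42 member probes (9.52%), near the 7.79% of all probes. These were both of H2-Q10, the dimmer of H2-Q2 and H2-Q6, and 28 of the 42 probes were of class I. With mouse 23 counted in D1 the test picked 0.

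Slides were checked for both classes. Against the controls on the same slide, the class I median at D1 was 0.07 on slide 1, 0.51 on slide 2 and 0.24 on slide 3, and at D3, with mouse 35 entered by its own array on slides 2 and 3, it was -0.11, 0.07 (over 21 genes) and -0.33. The class II median at D3 was -0.21, -0.01 and -0.35. On slide 3 each of these compares 1 mouse with 1 control. Slide 2 held control mouse 4, the lowest of D0 in most class I genes.

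The genes around the members were taken from lists by pathway. Of 10 other class I pathway genes 0 were called at any dose. Of all probes tested, 1.06%, 0.626% and 2.43% were called at D1, D2 and D3. Canx (calnexin), a chaperone of new heavy chains, was -0.08, -0.21, -0.02, -0.19 and -0.07 in D0 and 0.23, 0.24, 0.16 and 0.21 in D3, with no overlap and a change of 0.33 (0.17 to 0.48, adjusted p = 0.0073 by limma). Canx was the 1 of the 10 past the adjusted p at D3, where 12.4% of all probes passed it. At that dose 7.47% of all probes were clear of the controls on the high side. Tapbpl, a relative of tapasin, changed by 0.25, 0.11 and 0.06, none past the adjusted p. Of 14 other class II pathway genes 1 was called: Ctss (cathepsin S), the protease that trims Cd74, was 1.52, 1.79, 1.77, 1.41 and 2.38 in D0 and 0.94, 1.54, 1.40, 1.04 and 0.79 in D2, a log2 fold change of -0.63 (-0.96 to -0.30, adjusted p = 0.0434). Rfxank, a subunit of the factor that binds the X box, was higher at D1 by 0.36 (adjusted p = 0.018), under 1.5-fold. At D1 4.73% of all probes passed the adjusted p.

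Among 8 class I-like molecules encoded outside the complex 0 were called. Cd1d1, which presents lipids to NKT cells, was 1.40, 1.24, 1.35, 1.13 and 1.34 in D0, 0.76, 1.03, 0.63, 0.86 and 0.86 in D2, and 0.89, 0.84, 1.07 and 0.78 in D3. It was below all controls at both doses, with changes of -0.46 (adjusted p = 0.0041 by limma) and -0.40 (adjusted p = 0.00538), both under 1.5-fold. Mr1, which presents vitamin metabolites to MAIT cells, was higher at D3 by 0.38 (adjusted p = 0.00973). By the adjusted p alone 2.09% of all probes passed at D2 and 12.4% at D3. Of the interferon gamma axis, which induces class I and class II genes, 20 of 21 genes were tested and 0 were called, with 16, 16 and 14 above 0 at D1, D2 and D3 and medians of 0.12, 0.15 and 0.09. Its genes with the smallest p over the doses were the kinase Jak2, at 0.09, 0.18 and 0.23, and the GTPase Irgm2, at 0.42, 0.21 and -0.16, neither past the adjusted p at any dose.

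Markers of the cells that carry these molecules moved as follows, where 1.06%, 0.626% and 2.43% of all probes were called at D1, D2 and D3. Of 11 alveolar macrophage markers 8, 10 and 8 were below 0 at D1, D2 and D3, with medians of -0.13, -0.34 and -0.30, and Siglecf was called at D2 (-1.05) and Krt79 at D3 (-1.40). Their summed red signal, not normalized between arrays, was 42300 to 76700 in D0, 50500 to 81900 in D1, 27500 to 56900 in D2 and 36800 to 67800 in D3. Of 10 dendritic cell markers tested 4, 2 and 5 were above 0 at D1, D2 and D3, with medians of -0.06, -0.15 and 0.01. Clec9a was called lower at D1 (-0.78) and Cd209a at D3 (-0.82), while by the adjusted p alone Itgax was lower at D2 (-0.43) and Zbtb46 higher at D3 (0.24). Of 7 NK cell markers tested all were below 0 at every dose, with medians of -0.32, -0.34 and -0.55, Gzma being called at each dose. At D3 2 of them were called, and 2, 3 and 4 were lower by the adjusted p alone at D1, D2 and D3. T cell markers had medians of 0.15, 0.30 and 0.41 and alveolar type 2 cell markers -0.28, -0.07 and -0.32, with 0 called in either list. Endothelial cell markers had medians of -0.06, 0.17 and 0.04, with 1, 0 and 2 called higher, and monocyte and interstitial macrophage markers 0.04, -0.14 and -0.09, with 0 called. The part of these lists in the class I and class II values was not tested.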

How the data were processed

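Lung RNA of 18 mice was measured on 19 Agilent arrays. The scanner output deposited for each array gives intensity in 2 forms, median signals without correction and signals processed by the scanner software (Feature Extraction 11.0.1.1 per the file headers, a version other than that in the study's methods). The authors also deposited log2 ratios, red over green, normalized by LOWESS from median signals, and these correlated with the ratios computed here at 0.995 to 0.998 per array. Groups came from the labels. Median signals were normalized by loess (span 0.3) without background subtraction, control and outlier spots were left out, spots of a probe were averaged, and probes were kept whose lung signal was well above background in at least 4 mice of 1 group. The lmFit and eBayes functions of limma (version 3.58.1, run under R 4.3.3) fitted a model of 4 groups, with Benjamini-Hochberg adjustment over all 31004 probes, which replaced the MAANOVA of the methods and was tested on simulated data. Intervals are 95%, and 80 of 55681 probes lacked a value in some mouse. The number of mice limits the precision.

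Symbols came from RefSeq accessions, 27235 of 28685 of which matched. Members and lists were chosen with earlier results of these data known. Named were the chains, the assembly and control genes, H2-T23 and H2-M3 by the brighter probe, any other member called, and, of each pathway list, genes called or the 2 with the smallest p. Alternatives were median centring, processed signals, normexp, the lung channel alone, no filter, the methods' filter, slide as a block, mouse 23 in D1, either array of mouse 35, the deposited ratios, the mean over probes, and leaving out each mouse. The within-slide values, and slide or array row as a block with array 35.1 alone, were added after seeing the data.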

Additional observations from a re-analysis of the deposited data

Results flagged for a closer look

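In 100 groups of mice looked at for a single mouse far from the rest of its group (Dixon's test at its 95% critical value, which chance passes in about 1 group of 20), 5 were found. Psmb9 was low in D1 mouse 22, with a log2 ratio of 1.29 where the others had 1.75 to 1.81. Tap1 was high in D1 mouse 25, at 0.84 against 0.13 to 0.23. Tap2 was low in D2 mouse 23, at 0.0064 against 0.40 to 0.46, and this is the mouse whose number falls among those of D1. H2-K1 was high in D2 mouse 29, at 3.21 against 2.67 to 2.78, as were most class I genes of that mouse. H2-Oa was low in D0 mouse 2, at 0.93 against 2.00 to 2.26.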

How the results depend on the processing

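No paired analysis was possible because the mouse numbers of the groups do not overlap, so matching was by place on the slides, with the slide or the array row as a block. Counts of member probes in this paragraph are out of 42. With median centring in place of loess, which moved the median over all probes to 0.17, 0.12 and 0.06 at D1, D2 and D3, no member was called at D3 (0), in the trend (0) or over the doses (0), the adjusted p alone picked 0 at D1 and 0 at D3, and the class I medians were 0.58, 0.32 and 0.15. The processed signals gave 1 with any difference over the doses, 0 at D1 and 1 at D3 by the adjusted p alone, and a class II median of -0.20 at D3. The class I median at D3 was -0.013 from the lung channel alone and 0.0007 without the filter on low signals, where the adjusted p alone picked 1 at D3. Slide as a block gave more calls: 1 at D1 (the dimmer H2-Q10 probe), 1 at D2 (H2-Ob) and 2 at D3 (the dimmer H2-Q10 probe and H2-Q4), 8 over the doses, and 6, 1 and 5 by the adjusted p alone. In that fit with array 35.1 alone for mouse 35 the counts were 1, 1 and 2, then 8, and 5, 1 and 6. The array row of a slide as a block, also with array 35.1 alone, gave 2 called at D1 (Tap1 and the dimmer H2-Q10 probe), 1 at D2 and 2 at D3, 8 over the doses, and 5, 2 and 6 by the adjusted p alone. With mouse 23 in D1, 0 members differed over the doses and 0 passed the adjusted p at D1. Array 35.1 alone gave 2 called at D3. The deposited ratios gave 5 at D1 and 1 at D3 by the adjusted p alone. Leaving out 1 mouse at a time gave 0 to 1 called at D1, 0 to 0 at D2, 1 to 2 at D3, 0 to 1 in the trend and 1 to 7 over the doses, with 1 to 8, 0 to 0 and 1 to 3 by the adjusted p alone. Without control mouse 1, 8 members passed the adjusted p at D1, 7 differed over the doses and the class I median at D3 was 0.029. The trend call was lost without D3 mouse 32 or 34, and 2 members were called at D3 without D3 mouse 32, control mouse 4 or control mouse 5. Without control mouse 5 the class II median at D1 was 0.055. The class I medians then ranged from 0.20 to 0.37, 0.02 to 0.16 and -0.14 to 0.029, and the class II medians from 0.055 to 0.34, 0.11 to 0.24 and -0.11 to 0.11. The cause of these shifts was not tested. No result with a test changed to a call in the opposite direction under any of these settings. Weak signals limit Ciita, and also H2-Q1, H2-DMb2, H2-Eb2 and the dimmer H2-Q10 probe, whose reference signal never rose well above background.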
